A study of Mus musculus with 4 samples.

Results

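The 7 genes described here are Maf, Icos, Gata3, Rora, Bcl6, Ahr and Nfil3, regulators best known from CD4 helper T cells and measured here in CD8 T cells. They were picked by name from the 24312 genes listed in the deposited table, with earlier results of the same comparison in view, so how they differ between the groups is given as a description. Poly(A) RNA was sequenced from C57BL/6 P14 CD8 T cells, which carry a transgenic T cell receptor specific for gp33, a peptide of lymphocytic choriomeningitis virus. There were 2 libraries of cells transduced with BATF in the retroviral vector MIG (MSCV-IRES-GFP), called BATF below, and 2 libraries of cells transduced with the empty vector, called MIG. All cells had been activated with 100 ng/ml gp33 for 1 day before transduction and 1 day after it, grown for 2 days in 10 ng/ml IL-2, sorted for CD8 and GFP, and kept for 2 more days in 1 ng/ml IL-2. The vector marks transduced cells by GFP. Only in the BATF group does the retrovirus add BATF, on top of the cells' own Batf gene, which both groups have. The sources used here do not say whether the 2 libraries of a group came from separate mice. Every error below thus rests on the spread between libraries, which may be technical. Each error comes from a fit that also draws on the spread of the other genes tested.

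These genes form the regulatory core by which helper T cells take on different fates. MAF is a basic leucine zipper factor that drives IL-4, IL-10 and IL-21 in type 2, regulatory and follicular helper cells, and ICOS is a costimulatory receptor of the CD28 family that works through phosphatidylinositol 3-kinase. GATA3 directs type 2 helper cells, BCL6 directs follicular helper cells and represses Prdm1, which encodes BLIMP-1, and RORA acts in type 17 cells and in innate lymphoid cells. AHR is a ligand-activated factor that shapes type 17 and IL-22-producing cells, and NFIL3 is a leucine zipper repressor needed for NK and innate lymphoid cells. BATF itself is needed for type 17 and follicular helper cells and for the expansion of effector CD8 T cells.

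In CD8 T cells carrying added BATF, Maf and Icos mRNA were higher, by 4.83-fold and 2.61-fold. Nfil3 was higher in both BATF libraries than in both MIG libraries, at 1.91 times the MIG level, and did not pass the test. Gata3 lay only slightly above MIG, Bcl6 slightly below, and the groups overlapped for Rora and Ahr. Of the 7 genes, 2 were past the threshold and higher, 0 were past it and lower, and 5 were not past it (edgeR's quasi-likelihood test, Benjamini-Hochberg adjusted p below 0.05). Over the 13008 genes tested, 142 were called, a share of 1.09% (0.884% higher and 0.208% lower). At an unadjusted p below 0.05 there were 4 of the 7 higher and 1 lower, where the shares of all genes were 6.69% and 4.09%, or 10.8% together. DESeq2 called 3 higher and 0 lower, where it called 2.80% of all genes (2.04% higher and 0.761% lower), and limma on log2(FPKM + 1) called 1 higher and 0 lower, where it called 0.338% (0.308% higher and 0.0308% lower). In the other alternatives the share of all genes called was 1.12% with DESeq2 size factors in edgeR, 1.53% with no filter on low counts, 11.6% with a block by replicate number, and, leaving out 1 library, 2.00% without BATF replicate 1, 1.79% without BATF replicate 2, 1.79% without MIG replicate 1 and 4.27% without MIG replicate 2. Because the 7 genes were chosen with this comparison known, nothing is read from their count. Both BATF libraries lay above both MIG libraries for 4 of the 7 genes and below them for 1, where the shares of all tested genes were 19.2% and 19.4%, or 38.7% together. The median log2 fold change of the 7 genes was 0.30, beside -0.0056 over all genes tested.

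**Figure D1:**
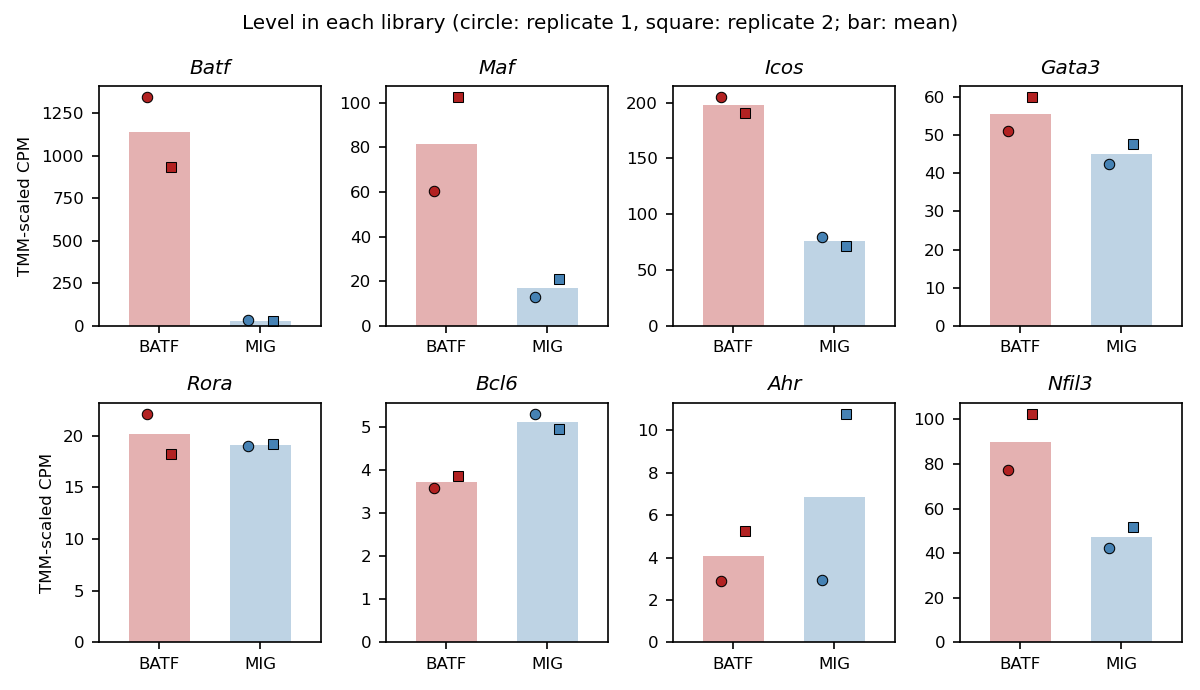
CPM, that is counts scaled to library size by TMM, of Batf and the 7 regulators in each library, on a linear axis from 0 with its own range for each gene; circles are replicate 1, squares replicate 2, and bars the mean of the 2 libraries. For Maf, Icos and Nfil3 both BATF points stand above both MIG points, while for Ahr MIG replicate 2 at 10.8 CPM stands above the other libraries.

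The libraries held 19004726 and 21835968 fragments in BATF and 24795714 and 20354623 in MIG, and 12872 to 13230 genes per library reached 10 fragments. Batf stood at 1342 and 934 CPM in BATF, against 36.1 and 26.5 CPM in MIG, so the added gene matched the labels. The summed level of 9 CD8 T cell markers was 7209 and 9243 CPM in BATF, against 7306 and 7728 CPM in MIG. Gzmb, which encodes the cytotoxic protease granzyme B and was named here after its values were seen, carried much of that sum, at 3118 and 4678 CPM in BATF against 2340 and 2741 CPM in MIG, and it was the 1 marker of the 9 called by DESeq2. Without Gzmb the other 8 markers summed to 4092 and 4566 CPM in BATF, against 4966 and 4987 CPM in MIG, and all 8 had a log2 fold change below 0. EdgeR called 0 of the 9, beside 1.09% of all genes tested, and DESeq2 called 2.80% of all genes. At an unadjusted p below 0.05, 1 was higher and 3 were lower, beside 6.69% and 4.09% of all genes. The median log2 fold change was -0.18. For 5 markers both BATF libraries lay below both MIG libraries, which held for 19.4% of all genes tested. Whether these marker differences had a part in the values of the 7 genes was not tested. The 8 markers of CD4 and regulatory T cells summed to 99.4 and 87.8 CPM in BATF, against 72.2 and 69.1 CPM in MIG. Of these 8, edgeR called 0, 2 were higher at an unadjusted p below 0.05 and DESeq2 called 1, beside the same shares of all genes. Zbtb7b and Ccr4 made up most of that sum, and the defining marker Cd4 had 15 and 13 fragments in BATF and 12 and 11 in MIG. Markers of B cells, of myeloid cells and of NK and innate lymphoid cells summed to between 7.31 and 14.3 CPM in BATF and between 5.76 and 19.0 CPM in MIG. In RNA from a bulk culture, fewer cells with a transcript and less of it per cell cannot be told apart.

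Maf showed the widest difference of the 7 genes. It had 1144 and 2226 fragments in BATF and 315 and 432 in MIG, which is 60.3 and 102 CPM in BATF against 12.9 and 21.0 CPM in MIG (log2 fold change 2.27 ± 0.30 SE, n = 2 per group). Both BATF libraries were well above both MIG libraries, yet the libraries of a group also differed. The higher library was 1.70 times the lower in BATF and 1.63 times in MIG, a spread that only 3.45% of genes in BATF and 4.48% in MIG exceeded, among genes averaging at least 1 CPM in the group. Leaving out 1 library at a time gave log2 fold changes from 1.84 to 2.65. Maf was past the threshold in 8 of the 9 alternatives and was not past it with limma on log2(FPKM + 1).

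None of the tested relatives of MAF passed the test, and neither did most genes. EdgeR called 1.09% of all genes tested and DESeq2 called 2.80%. Of all genes, 6.69% were higher and 4.09% lower at an unadjusted p below 0.05. Of 12 large and small MAF proteins and CNC factors, the leucine zipper partners of the small MAF proteins, 7 were tested and 0 were called by edgeR or by DESeq2, and an unadjusted p below 0.05 was reached by 1 higher and 1 lower gene, with a median log2 fold change of -0.12. Mafg, a small MAF protein with no activation domain, was at 16.1 and 19.3 CPM in BATF and 13.3 and 12.6 CPM in MIG (log2 fold change 0.45 ± 0.15 SE), without passing the test. Mafk, its close relative, was at 41.8 and 49.4 CPM in BATF and 48.5 and 50.7 CPM in MIG, where the groups overlapped. Bach2, a repressor that keeps T cells in a naive or memory state, was at 30.6 and 23.5 CPM in BATF and 40.2 and 29.5 CPM in MIG, again with overlap.

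MAF and BLIMP-1 act together in T cells on inhibitory receptors and on Il10. Of the 8 tested genes of a list linked to both, which also holds Prdm1 itself, the activating receptor Cd226 and the cytokine receptor gene Il27ra, 3 rose, the inhibitory receptors Havcr2 and Lag3 and BLIMP-1's own gene Prdm1, with 0 lower. At an unadjusted p below 0.05 the counts were 4 higher and 0 lower. DESeq2 called 4 higher and 0 lower. Of all genes, edgeR called 0.884% higher, 6.69% were higher at an unadjusted p below 0.05, and DESeq2 called 2.04% higher. The median log2 fold change of the list was 0.85, between 0.81 and 1.11 in the alternatives. The list was chosen with earlier results of these data known, so nothing is read from these counts or this median. Havcr2, which encodes the inhibitory receptor TIM-3, was at 7.65 and 12.7 CPM in BATF, against 1.10 and 1.84 CPM in MIG (log2 fold change 2.80 ± 0.35 SE, edgeR adjusted p = 0.0229). Prdm1 was at 38.7 and 31.3 CPM in BATF, against 15.9 and 11.5 CPM in MIG (log2 fold change 1.35 ± 0.19 SE, edgeR adjusted p = 0.0279). Lag3, an inhibitory receptor for MHC class II, was at 86.6 and 82.2 CPM in BATF, against 40.3 and 35.4 CPM in MIG (log2 fold change 1.16 ± 0.10 SE, edgeR adjusted p = 0.00856). Limma on log2(FPKM + 1) called Lag3 but neither Havcr2, with an adjusted p of 0.0623, nor Prdm1, with 0.0899, and these were the highest adjusted p of 8 alternatives (all but the block), whose lowest were 6.75e-10 for Havcr2 and 5.80e-08 for Prdm1. Il10, a cytokine gene that MAF activates in helper cells, was near silence, with 8 and 29 fragments in BATF and 14 and 14 in MIG. It was not past the threshold in any of these 8 alternatives.

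Icos differed with little spread. It had 3881 and 4149 fragments in BATF and 1951 and 1478 in MIG, or 205 and 191 CPM in BATF against 79.7 and 71.7 CPM in MIG (log2 fold change 1.38 ± 0.09 SE, n = 2 per group). The libraries of a group were within 1.07 times of each other in BATF and 1.11 times in MIG, and the groups lay far apart. Icos was past the threshold in 9 of 9 alternatives, with log2 fold changes from 1.30 to 1.47 when 1 library was left out.

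Around Icos, the CD28 family and its signalling genes gave 0 calls by edgeR among 20 tested genes, beside 1.09% of all genes. Their median log2 fold change was -0.07. At an unadjusted p below 0.05, 4 of them were higher and 3 lower, beside 6.69% and 4.09% of all genes. DESeq2 called 3 of them higher and 2 lower, beside 2.04% and 0.761% of all genes. Cd28, the founding receptor of the family, was at 186 and 163 CPM in BATF and 187 and 155 CPM in MIG, with overlapping groups. Ctla4, the inhibitory receptor that shares the ligands of CD28, was at 103 and 92.1 CPM in BATF and 60.5 and 43.1 CPM in MIG (log2 fold change 0.91 ± 0.16 SE, edgeR adjusted p = 0.0622). It was past the threshold in 6 of the same 8 alternatives. Rc3h1, which encodes Roquin-1, a protein that destabilises Icos mRNA, was at 64.4 and 64.8 CPM in BATF and 63.6 and 68.2 CPM in MIG. Zc3h12a, which encodes Regnase-1, a nuclease that also acts on Icos mRNA, was at 9.81 and 12.9 CPM in BATF and 15.4 and 10.5 CPM in MIG, so the groups overlapped for both of these genes. Icosl, the ligand gene, was chosen here after its values were seen, and it was at 4.59 and 7.63 CPM in BATF and 3.76 and 4.85 CPM in MIG.

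Gata3 was expressed in all libraries and differed little. It had 966 and 1302 fragments in BATF and 1039 and 979 in MIG, or 50.9 and 59.8 CPM in BATF and 42.4 and 47.5 CPM in MIG (log2 fold change 0.30 ± 0.12 SE). Both BATF libraries were above both MIG libraries, but the lower BATF library stood only 3.42 CPM above the higher MIG library. The log2 fold change lay between 0.18 and 0.41 when 1 library was left out, and Gata3 did not pass the test in any of these fits. The listed genes 4930412O13Rik, with 7 to 10 fragments per library, and 9230102O04Rik, with 0 to 5, were taken by name as near neighbours of Gata3. Whether they overlap it was not checked against coordinates. Their fragments could not be separated by strand here, since the sources used here do not give the strandedness of the libraries. Gata3 itself had 966 or more fragments in every library.

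The GATA relatives and their cofactors gave 0 calls among 9 tested genes by edgeR, 0 at an unadjusted p below 0.05 and 0 by DESeq2. Over all genes tested the same shares were 1.09%, 10.8% and 2.80%. Zfpm1, which encodes FOG-1, a cofactor that restrains GATA3, was at 109 and 102 CPM in BATF and 99.7 and 89.0 CPM in MIG (log2 fold change 0.16 ± 0.09 SE). Among 13 tested type 2 genes, 1 rose and 0 fell, beside 0.884% and 0.208% of all genes. Their median log2 fold change was 0.46 and lay between 0.16 and 0.63 in the alternatives. At an unadjusted p below 0.05, 4 were higher and 0 lower, beside 6.69% and 4.09% of all genes. DESeq2 called 2 higher and 0 lower, beside 2.04% and 0.761% of all genes. The gene that rose was Pparg, a nuclear receptor that type 2 helper cells use, at 22.3 and 23.7 CPM in BATF against 3.55 and 3.74 CPM in MIG (log2 fold change 2.65 ± 0.15 SE, edgeR adjusted p = 0.00234).

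Cytokine genes of type 2 cells stayed almost without reads in both groups. Il4 had 4 and 13 fragments in BATF and 1 and 3 in MIG, Il5 had 2 and 3 in BATF and 2 and 6 in MIG, and Il13 had 2 and 2 in BATF and 0 and 1 in MIG. None of these 3 genes passed the filter on low counts, so they were not tested. The culture steps given above list no second exposure to gp33 before RNA was taken. These counts therefore do not show whether the genes could be induced, and the same limit holds for Il10, Il17a and Il22. At this depth 3 fragments, the limit that a count of 0 allows, correspond to between 0.121 and 0.158 CPM.

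RefSeq promoter sequence was matched by symbol for 4 of the 7 genes, Gata3, Rora, Bcl6 and Nfil3, in 5 windows of 300 bases that run from 250 bases before a gene's start to 50 bases after it (mouse build GRCm38.p6). The windows of Gata3 and Nfil3, and the Bcl6 window that held matches, are printed. They show where letters bound by MAF, RORA and BCL6 occur at starts of the genes of GATA3, NFIL3 and BCL6, and capitals mark those matches. A search of both strands for TGCTGA, the core of a MAF recognition element, found it once in the Gata3 window, chr2:9878551-9878850 on the minus strand, at bases 161 to 166, which is 90 bases before the start.
Gata3: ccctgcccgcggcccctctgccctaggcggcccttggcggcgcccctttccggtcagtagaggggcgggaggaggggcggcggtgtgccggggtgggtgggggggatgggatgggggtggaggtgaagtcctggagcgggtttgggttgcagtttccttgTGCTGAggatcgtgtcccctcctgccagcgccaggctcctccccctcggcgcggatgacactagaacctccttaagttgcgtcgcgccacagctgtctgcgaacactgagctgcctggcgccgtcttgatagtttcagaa
The same 6 letters occur in 19.5% of the 32851 mouse promoter windows, so the match is a common one. AGGTCA, the core of the RORA recognition element, occurs once in the Nfil3 window, chr13:52980990-52981289 on the minus strand, read there as TGACCT at bases 239 to 244, which is 12 bases before the start.
Nfil3: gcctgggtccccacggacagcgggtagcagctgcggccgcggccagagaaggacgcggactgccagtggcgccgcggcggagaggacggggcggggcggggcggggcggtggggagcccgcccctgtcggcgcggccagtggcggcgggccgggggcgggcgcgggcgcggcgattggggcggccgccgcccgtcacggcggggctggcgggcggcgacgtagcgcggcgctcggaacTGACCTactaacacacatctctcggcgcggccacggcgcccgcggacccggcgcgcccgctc
AGGTCA occurs in 16.3% of all windows, and 81.7% of the bases of the Nfil3 window are G or C, beside a median of 52.7% over all windows. TTCCNNGAA, a motif that BCL6 and STAT proteins bind, occurs at 2 places in one of the Bcl6 windows, chr16:23981234-23981533 on the minus strand, as TTCCTGGAA at bases 83 to 91 and TTCCGGGAA at bases 163 to 171, and each reads as a match on both strands.
Bcl6: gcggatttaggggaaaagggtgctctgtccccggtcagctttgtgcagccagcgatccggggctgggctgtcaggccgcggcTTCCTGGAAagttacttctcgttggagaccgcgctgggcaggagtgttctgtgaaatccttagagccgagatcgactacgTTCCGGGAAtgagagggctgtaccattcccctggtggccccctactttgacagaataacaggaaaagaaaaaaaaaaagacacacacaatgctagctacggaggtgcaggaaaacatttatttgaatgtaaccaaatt
That motif occurs in 4.81% of all windows. The other Bcl6 window, chr16:23988803-23989102 on the minus strand, held no match. Since both are on the minus strand, it lies upstream of the printed Bcl6 window. The printed matches thus lie at the more downstream of these Bcl6 starts. The Rora window held only GCGTG, the core that AHR binds, which 32.4% of all windows hold. The AP-1 motif TGANTCA, to which BATF pairs bind and which 7.81% of windows hold, and the related TGACGTCA, held by 1.79%, were not among the letters of the 5 windows. AGATAA, a form of the motif bound by GATA factors, and TTANGTAA, bound by NFIL3, also had no match there. Of all windows, 11.2% hold AGATAA and 2.32% hold TTANGTAA. Other forms of the GATA motif were not searched, and no match says only that these letters do not occur in these windows.

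Nfil3 was, with Icos, one of the most highly expressed of the 7 genes. It had 1466 and 2229 fragments in BATF and 1036 and 1067 in MIG, or 77.3 and 102 CPM in BATF and 42.3 and 51.8 CPM in MIG (log2 fold change 0.94 ± 0.16 SE, n = 2 per group). The groups did not overlap, and the higher library was 1.33 times the lower in BATF and 1.22 times in MIG. Nfil3 missed the threshold with all 4 libraries in edgeR and was past it in 6 of the 9 alternatives, among them DESeq2 and the fit with no filter on low counts. Leaving out 1 library at a time gave log2 fold changes from 0.72 to 1.12.

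Rora, the clock and type 17 factor, was close to equal in the groups. It had 419 and 397 fragments in BATF and 465 and 396 in MIG, or 22.1 and 18.2 CPM in BATF and 19.0 and 19.2 CPM in MIG (log2 fold change 0.08 ± 0.14 SE). The 2 BATF libraries lay on either side of both MIG libraries. Without BATF replicate 1 the log2 fold change turned to -0.07, and Rora was past the threshold in 0 of 9 alternatives. The range of 2 SE on either side of the estimate runs from -0.21 to 0.36.

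RORA and NFIL3 both act on clock genes, RORA as an activator of Arntl and NFIL3 as a repressor that shares sites with DBP. Of 20 clock genes tested, edgeR called 0, beside 1.09% of all genes, and their median log2 fold change was 0.02. At an unadjusted p below 0.05, 2 were higher and 0 lower, beside 6.69% and 4.09% of all genes. DESeq2 called 1, beside 2.80% of all genes. That gene was Bhlhe40, a repressor also induced by T cell activation. Bhlhe40 stood at 149 and 152 CPM in BATF and 88.5 and 116 CPM in MIG (log2 fold change 0.55 ± 0.13 SE). Arntl, which encodes the clock activator BMAL1, was at 8.38 and 9.33 CPM in BATF and 7.97 and 8.69 CPM in MIG. Dbp, a clock output gene, was at 4.90 and 4.64 CPM in BATF and 4.09 and 3.93 CPM in MIG. Nr1d1 and Nr1d2, which encode the REV-ERB repressors that compete with RORA, were at 1.06 and 0.744 FPKM and at 2.40 and 2.94 FPKM in BATF, against 1.18 and 1.02 FPKM and 2.55 and 3.35 FPKM in MIG. Per1, a clock repressor, was at 20.4 and 18.9 CPM in BATF and 21.0 and 16.9 CPM in MIG, and of these 5 genes, none of which passed the test, only Dbp had groups that did not overlap.

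Type 17 genes, the list of the IL-17 lineage, gave 1 call in each direction among 11 tested, beside 0.884% higher and 0.208% lower over all genes. Their median log2 fold change was -0.22, between -0.36 and 0.0043 in the alternatives. At an unadjusted p below 0.05, 2 were higher and 3 lower, beside 6.69% and 4.09% of all genes. DESeq2 called 2 higher and 2 lower, beside 2.04% and 0.761% of all genes. Hif1a, the oxygen-sensing factor that promotes type 17 cells, was at 392 and 356 CPM in BATF, against 261 and 259 CPM in MIG (log2 fold change 0.52 ± 0.08 SE, edgeR adjusted p = 0.0460). Its call was lost without BATF replicate 1, without BATF replicate 2 and with limma, with adjusted p from 0.000115 to 0.248 over 8 alternatives. Il6ra, the receptor for IL-6, fell to 2.69 and 1.93 CPM in BATF, against 7.76 and 6.21 CPM in MIG (log2 fold change -1.60 ± 0.25 SE, edgeR adjusted p = 0.0406). Its call was lost without MIG replicate 1 and with limma, with adjusted p from 0.000632 to 0.0716 over 8 alternatives. Il17a, the signature cytokine gene of the lineage, had 0 and 0 fragments in BATF and 1 and 0 in MIG. Il22 had 1 and 2 fragments in BATF and 1 and 0 in MIG.

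Bcl6 was low in these cells and did not pass the test. It had 68 and 84 fragments in BATF and 130 and 102 in MIG, or 3.59 and 3.86 CPM in BATF and 5.31 and 4.95 CPM in MIG (log2 fold change -0.46 ± 0.19 SE). Both BATF libraries were below both MIG libraries and the libraries of a group differed by at most 1.08 times. Bcl6 was past the threshold in 0 of 9 alternatives, with log2 fold changes from -0.52 to -0.41 when 1 library was left out. The 13 tested relatives and corepressors of BCL6 gave 0 calls by edgeR, 1 higher and 0 lower at an unadjusted p below 0.05, and 1 by DESeq2. Over all genes tested the shares were 1.09% by edgeR, 6.69% higher and 4.09% lower unadjusted, and 2.80% by DESeq2. Ncor1, a corepressor that binds BCL6, was at 382 and 380 CPM in BATF and 395 and 370 CPM in MIG, and Bcor, another, at 150 and 158 CPM in BATF and 147 and 151 CPM in MIG. The DESeq2 call was Zbtb7b, which encodes ThPOK, the factor of the CD4 lineage, at 44.2 and 34.9 CPM in BATF and 23.0 and 17.9 CPM in MIG (log2 fold change 0.95 ± 0.17 SE, edgeR adjusted p = 0.0658). It was past the threshold in 6 of 8 alternatives.

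Follicular helper genes gave 1 gene higher and 2 lower among 21 tested, beside 0.884% and 0.208% of all genes. Their median log2 fold change was -0.22, between -0.42 and -0.09 in the alternatives. The list mixes genes that follicular helper cells raise with genes that oppose that fate, such as Prdm1. Its median is therefore no measure of a follicular programme. At an unadjusted p below 0.05, 4 were higher and 5 lower, beside 6.69% and 4.09% of all genes. DESeq2 called 3 higher and 3 lower, beside 2.04% and 0.761% of all genes. Its 3 higher genes were Prdm1, Pdcd1 and Slamf6, and its 3 lower ones Il6ra, Gpr183 and Foxo1. Of these, Pdcd1, Slamf6 and Gpr183 were named here after their values were seen. The higher gene by edgeR was Prdm1, which BCL6 represses and which opposes the follicular fate, and the lower ones were Il6ra and Foxo1. Foxo1, a factor of quiescent T cells, fell to 146 and 150 CPM in BATF, against 225 and 228 CPM in MIG (log2 fold change -0.61 ± 0.08 SE, edgeR adjusted p = 0.0229). Its call was lost without either BATF library and with limma, with adjusted p up to 0.0657 over 8 alternatives. Tcf7, which encodes TCF-1, a factor that supports BCL6, was at 232 and 207 CPM in BATF and 508 and 318 CPM in MIG (log2 fold change -0.91 ± 0.20 SE, edgeR adjusted p = 0.123), and was past the threshold in 4 of 8 alternatives. Cxcr5, the follicle-homing receptor, had 11 and 18 fragments in BATF and 12 and 19 in MIG. Il21, the follicular helper cytokine, had 69 and 46 fragments in BATF and 57 and 79 in MIG, and the groups overlapped for both.

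**Figure D2:**
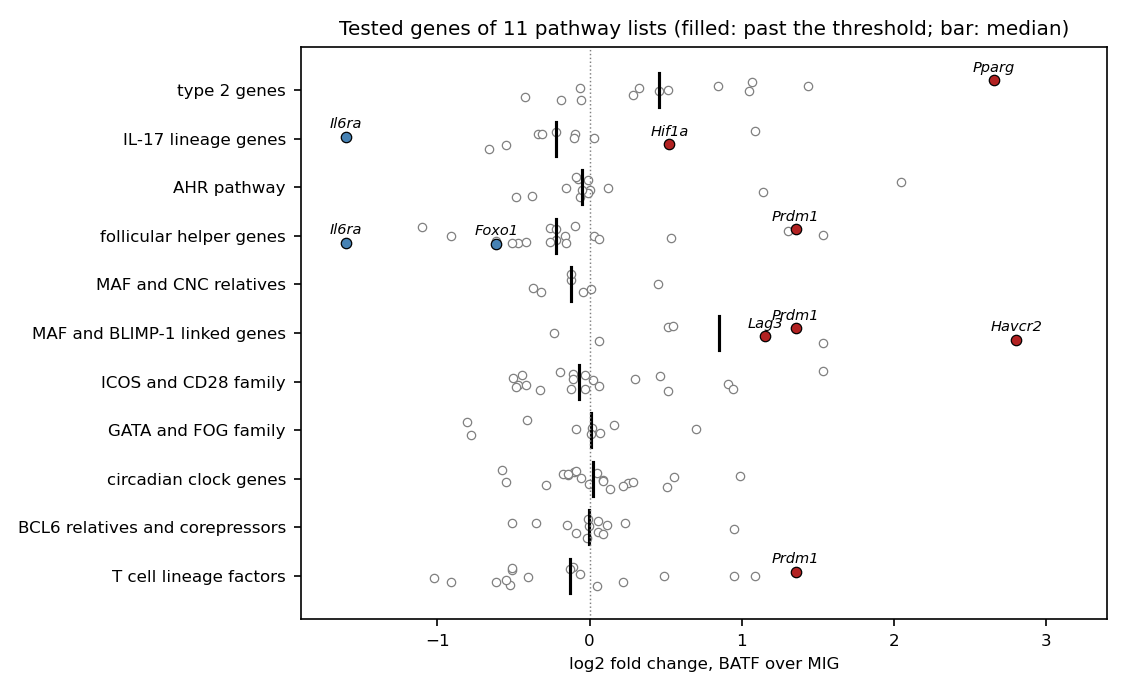
Log2 fold change of BATF over MIG for each tested gene of 11 lists around the 7 regulators, which are not on the lists themselves; filled points are past the adjusted p of 0.05 (red higher, blue lower in BATF), open points are not, and a bar marks the median of a list. The median stands furthest above 0 for the list linked to MAF and BLIMP-1, at 0.85, and next for the type 2 genes, at 0.46, while the clock, GATA and BCL6 lists have medians between -0.0049 and 0.02. The lists were chosen with earlier results of these data known, so their order is a description only.

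Ahr varied more between the libraries of a group than any other of the 7 genes. It had 55 and 114 fragments in BATF and 72 and 222 in MIG, or 2.90 and 5.24 CPM in BATF and 2.94 and 10.8 CPM in MIG (log2 fold change -0.73 ± 0.58 SE, n = 2 per group). The groups overlapped. The higher library was 1.81 times the lower in BATF and 3.66 times in MIG, a ratio that only 2.57% of genes exceeded in BATF and 0.153% in MIG. Without MIG replicate 2 the log2 fold change became 0.47, and without MIG replicate 1 it was -1.39, so the direction rests on which MIG library is used.

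Several genes that AHR is known to induce had their higher value in the same library of each group as Ahr. Ahrr, which encodes the repressor that AHR switches on to limit itself, was at 7.38 and 23.8 CPM in BATF and 8.66 and 20.3 CPM in MIG, a ratio of 3.22 between the libraries in BATF and 2.34 in MIG, while the groups barely differed (log2 fold change 0.12 ± 0.56 SE). Tiparp, another gene induced by AHR, was at 24.7 and 34.0 CPM in BATF and 29.3 and 52.9 CPM in MIG (log2 fold change -0.48 ± 0.28 SE). Cyp1b1, a cytochrome P450 gene and classical AHR target, had 8 and 23 fragments in BATF and 16 and 18 in MIG, where the counts are too low and close to rank. In each group the library with more Ahr also had more Ahrr and Tiparp, and in BATF it also had more Cyp1b1. Cyp1a1, another such target, chosen here after its values were seen, went against this in BATF, with 28 and 21 fragments there and 6 and 7 in MIG (log2 fold change 2.05 ± 0.47 SE, edgeR adjusted p = 0.130). Arnt, the partner through which AHR binds DNA, did not share this, at 11.8 and 11.9 FPKM in BATF and 12.6 and 12.2 FPKM in MIG. Over the 13 tested genes of the AHR list, edgeR called 0 and DESeq2 called 0 between BATF and MIG, beside 1.09% and 2.80% of all genes. At an unadjusted p below 0.05, 2 were higher and 0 lower, beside 6.69% and 4.09% of all genes, and the median log2 fold change was -0.05. What sets these libraries of a group apart was not tested.

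The same libraries had the higher values of Maf, Gata3 and Nfil3. Replicate 2 was above replicate 1 in both groups for 4 of the 7 genes and for 8 of the 13 tested genes of the AHR list, where the same held for 30.4% of all tested genes. The replicate numbers only name libraries, and a number shared by a BATF and a MIG library is not known to mark a shared mouse or day. The Batf level ran the other way, with replicate 2 at 0.696 times replicate 1 in BATF and 0.734 times in MIG.

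Factors that stand for other T cell fates showed 1 higher by edgeR among 17 tested, Prdm1, described above, with 0 lower, beside 0.884% and 0.208% of all genes. At an unadjusted p below 0.05, 4 of the 17 were higher and 3 lower, beside 6.69% and 4.09% of all genes. DESeq2 called 3 higher and 1 lower, beside 2.04% and 0.761% of all genes. Tbx21, which encodes T-bet, the factor of cytotoxic and type 1 cells, was at 129 and 104 CPM in BATF and 111 and 88.8 CPM in MIG (log2 fold change 0.22 ± 0.14 SE), with overlapping groups. Foxp3, the factor of regulatory T cells, had 17 and 31 fragments in BATF and 32 and 43 in MIG. Cd8a was at 423 and 599 CPM in BATF and 659 and 750 CPM in MIG (log2 fold change -0.46 ± 0.16 SE), and Cd8b1 at 498 and 593 CPM in BATF and 675 and 656 CPM in MIG (log2 fold change -0.29 ± 0.10 SE). Both chains of the CD8 receptor lay lower in BATF without passing the test, with an adjusted p of 0.337 each by edgeR. Over all 11 lists together, 133 of 164 distinct genes were tested, and their median log2 fold change was -0.04. EdgeR called 5 of the 133 higher and 2 lower, beside 0.884% and 0.208% of all genes. Limma on log2(FPKM + 1) called 2 of the list genes, Pparg and Lag3, beside 0.338% of all genes.

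Levels can be set against each other only per transcript length, for which the deposited FPKM (fragments per kilobase of transcript, scaled to library size) serves. In BATF the order was Icos at 65.1 and 61.7, Nfil3 at 41.9 and 56.5, Maf at 17.0 and 29.4, Gata3 at 16.4 and 19.6, Rora at 2.12 and 1.73, Bcl6 at 1.13 and 1.24, and Ahr at 0.532 and 0.977 FPKM. In MIG it was Nfil3 at 23.7 and 27.9, Icos at 26.1 and 22.7, Gata3 at 14.1 and 15.2, Maf at 3.75 and 5.88, Rora at 1.90 and 1.81, Bcl6 at 1.72 and 1.55, and Ahr at 0.556 and 1.96 FPKM. The ranges of neighbours in the order, or of the next but one, overlapped for Maf and Gata3 in BATF, and in MIG for Nfil3 and Icos, for Bcl6 and Ahr and for Rora and Ahr. No other neighbouring pair overlapped, Icos and Nfil3 in BATF included. Maf and Gata3 thus stood at similar levels in BATF, with a Maf to Gata3 ratio of 1.04 and 1.5, while in MIG that ratio was 0.266 and 0.386. The ratio of Gata3 to Bcl6 was 14.5 and 15.9 in BATF and 8.18 and 9.82 in MIG.

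Set among all genes with an FPKM above 0 in the same library, Maf was at percentile 78.4 and 85.4 in BATF and 60.0 and 65.1 in MIG. Icos was at percentile 93.3 and 92.7 in BATF and 83.7 and 82.8 in MIG, and Nfil3 at 89.7 and 92.1 in BATF and 82.3 and 85.5 in MIG. Gata3 kept to between 77.9 and 80.0 in BATF and between 75 and 77.3 in MIG. Rora, Bcl6 and Ahr lay near the middle of the genes with an FPKM above 0, between 47.9 and 55.9 in BATF and between 48.7 and 56.3 in MIG. That middle is a low level, with a median between 0.645 and 0.782 FPKM per library.

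**Figure D3:**
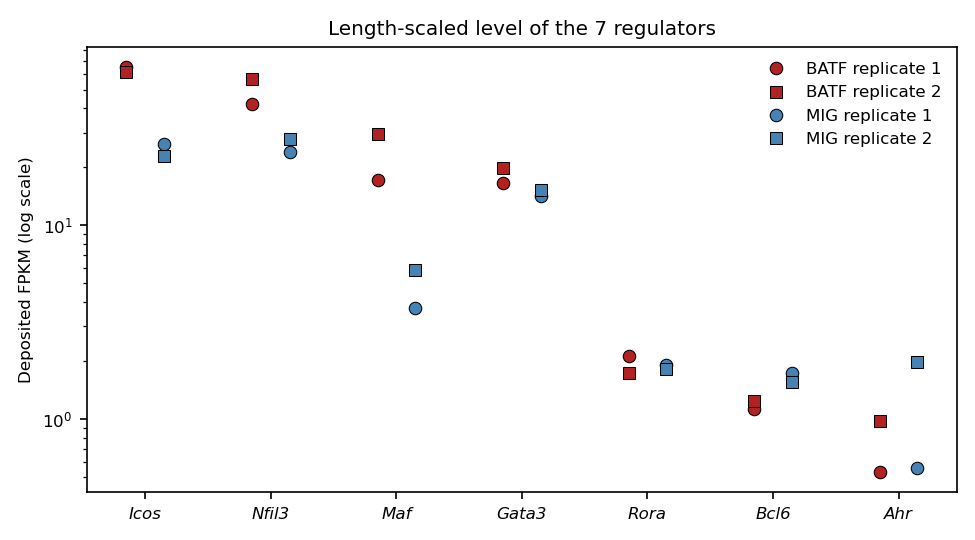
Deposited FPKM of the 7 regulators in each library on a log axis, ordered by their mean in BATF; red points are BATF and blue points MIG, circles replicate 1 and squares replicate 2. Icos, Nfil3, Maf and Gata3 form an upper group and Rora, Bcl6 and Ahr a lower one in both groups of cells, and Maf lies at the level of Gata3 in BATF and below it in MIG.

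The genes whose pattern over the 4 libraries was most like each of the 7 were sought among 9360 genes averaging at least 5 CPM, by the root mean square difference of centred log2 CPM. Nearest to Maf was Havcr2, at a distance of 0.23, then Emilin2 at 0.26 and Cdkn2b at 0.30. Nearest to Icos was Mrgpre at 0.06, then Amigo1 at 0.10 and Nlrp1a at 0.10, and nearest to Nfil3 was Mgat5 at 0.05, then Cldnd1 at 0.06 and Gpr141 at 0.07. Nearest to Ahr was D8Ertd82e at 0.24, then Ikzf4 at 0.28 and Cd244 at 0.28. The distances were short for Gata3, Rora and Bcl6, whose nearest genes were Smco4 at 0.02, Cyb5d2 at 0.01 and Ift80 at 0.01. Such likeness rests on 4 libraries and says nothing of shared control.

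**Figure D4:**
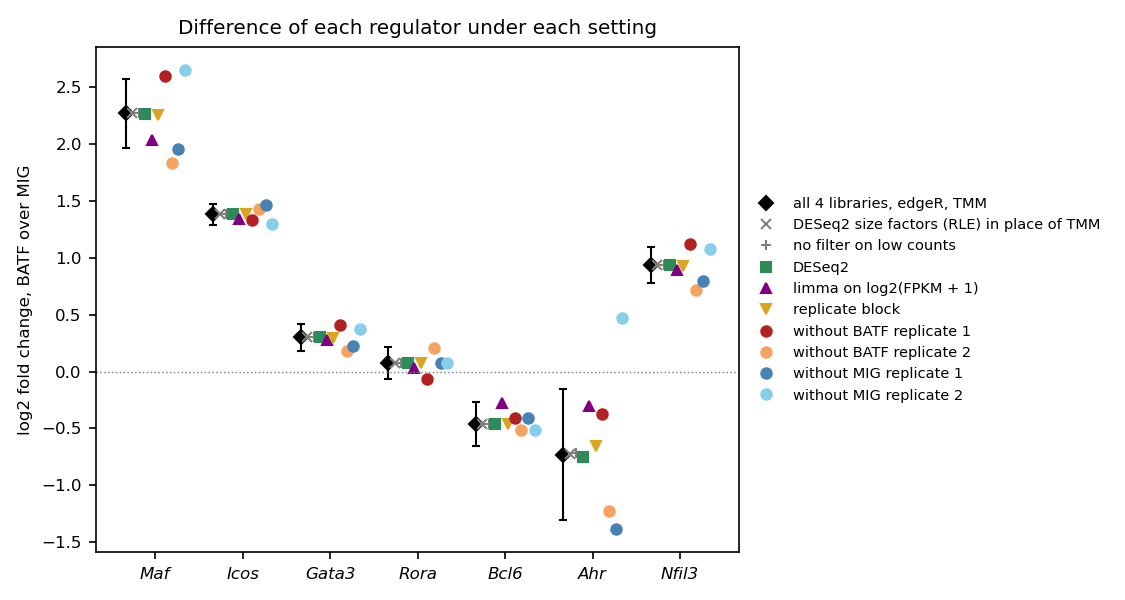
Log2 fold change of BATF over MIG for each of the 7 regulators in edgeR with all 4 libraries (black diamond, bar of 1 SE) and in the 9 alternatives, named in the legend. Maf and Icos stay above 1 and Nfil3 between 0.72 and 1.12 in every fit shown, the points of Rora straddle 0, and those of Ahr spread from -1.39 to 0.47.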

How the data were processed

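The deposited table is a Cuffdiff output with 1 entry per gene, condition and replicate; TopHat2 2.1.1, Cufflinks 2.2.2, Cuffdiff and the build mm9 are named per the submitters' processing notes, with gene annotation and strandedness not given in the sources used here. It holds the estimated counts of fragments that the authors' run assigned to each gene, 97.6% of them whole numbers (exactly equal to the rounded value), the authors' scaled fragment signal, which is that count times 1 factor per library, and the authors' FPKM, per the file headers. The table numbers replicates 0 and 1, read here as 1 and 2; no label ties these to the titles, so the numbers only name libraries. Counts of the 2 libraries of a group differed beyond sampling noise (chi-square divided by genes 8.10 in BATF, 14.8 in MIG), so each counted as 1 sample.

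Estimated counts were rounded and compared in R 4.3.3 with edgeR 4.0.16 (filterByExpr, TMM scaling with factors from 0.988 to 1.01, quasi-likelihood test, no covariate, Benjamini-Hochberg adjustment over 13008 genes, threshold 0.05). Levels are TMM-scaled CPM, and the SE of a fold change is its unshrunk coefficient over the root of the F statistic. EdgeR's biological coefficient of variation came to 11.3%. With 2 libraries against 2 a permutation test cannot give a p below 0.333, so none was run. FPKM served for levels between genes, on the linear scale.

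The 7 genes, 11 pathway lists (184 entries, 164 distinct genes) and 5 marker lists were chosen with earlier results of these data known; of all 225 entries 223 matched a listed gene, and Il26 and Tcrg-C1 did not. Named were the 7 genes, Batf, a set of key genes taken whatever their values, and from each pathway list up to 4 called genes per direction averaging at least 1 CPM; others are marked where they appear, and some named genes are not reported here. The 9 alternatives were DESeq2 size factors, no count filter, DESeq2 1.42.0, limma 3.58.1 on log2(FPKM + 1), the replicate number as a block, and each of the 4 libraries left out in turn, where the lone library was taken to vary like the rest. Promoter windows are from RefSeq, build GRCm38.p6, and 8 motifs were searched. The limit that a count of 0 allows covers counting error only.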

Additional observations from a re-analysis of the deposited data

How the results depend on the processing

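Of 63 values of the 7 genes under the 9 alternatives, 52 kept their direction and side of the threshold, 8 passed it newly, 1 no longer passed it and 2 changed sign; of 342 values of 38 other named genes these counts were 284, 31, 10 and 17. Called genes numbered 115 higher and 27 lower with all libraries in edgeR, 266 and 83 with no filter, 265 and 99 by DESeq2, 40 and 4 by limma on log2(FPKM + 1), and 192 to 320 and 55 to 269 with 1 library left out, the top of both ranges coming without MIG replicate 2. List genes called numbered 5 and 2, against 14 and 5 with no filter, 13 and 7 by DESeq2, 2 and 0 by limma (12 lower at an unadjusted p below 0.05), and 9 to 15 and 2 to 12 with 1 library left out. Of the 7 genes, 3 were past the threshold and higher with no filter, by DESeq2 and without BATF replicate 1, BATF replicate 2 or MIG replicate 2, and 1 was by limma, against 2 in edgeR with all libraries.

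With 1 library left out in turn, the log2 fold change spanned 0 for 13 named genes, given as lowest and highest value with the library whose omission turned the sign. Without BATF replicate 1 it turned for Rora (-0.066 to 0.21). Without BATF replicate 2 it turned for Il10 (-0.56 to 1.09). Without MIG replicate 1 it turned for Ncor1 (-0.058 to 0.046) and Zc3h12a (-0.45 to 0.12). Without MIG replicate 2 it turned for Ahr (-1.39 to 0.47), Nr1d2 (-0.34 to 0.091) and Rc3h1 (-0.074 to 0.016). Of a pair of libraries, leaving out either turned it for Cyp1b1 (BATF replicate 1 or MIG replicate 2, -0.84 to 0.48), Per1 (the same, -0.10 to 0.22), Cd28 (the same, -0.11 to 0.17), Il21 (BATF replicate 2 or MIG replicate 2, -0.53 to 0.29), Cxcr5 (BATF replicate 2 or MIG replicate 1, -0.37 to 0.52) and Ahrr (the same, -0.96 to 0.85). None of these genes was past the threshold in edgeR with all libraries, and the cause was not tested.

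With the replicate number as a block, 1 residual degree of freedom remained, and 916 genes were higher and 588 lower, a share of 11.6%, among them 25 higher and 21 lower list genes and 4 higher and 1 lower of the 7 (Maf, Icos, Gata3 and Nfil3, with Ahr lower). The deviations of same-numbered libraries correlated at r = 0.181 over 13008 genes; with 2 pairs and no label behind the numbers, the libraries were not treated as paired.

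By CPM in place of FPKM the rank among the 7 became 1 for Icos, 2 for Nfil3, 4 for Rora, 5 for Maf, 6 for Ahr and 7 for Bcl6 in MIG, and 6 for Ahr and 7 for Bcl6 in BATF. With 2 libraries per group, the SE of the log2 fold change ran from 0.09 for Icos to 0.58 for Ahr, whose MIG libraries held 72 and 222 fragments.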
